A study of Mus musculus with 4 samples.

Results

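The cartilage collagen genes are the 8 genes that encode chains of collagens II, IX, X, XI and XXVII, namely Col2a1, Col9a1, Col9a2, Col9a3, Col10a1, Col11a1, Col11a2 and Col27a1, of 21757 protein-coding genes in the annotation. They were chosen by name and not by a cut on any measured value, but with earlier results of these data known. Around each gene, H3K27ac peaks were taken from the gene body and from 100 kb on either side of its 5′ end on GRCm39. These windows held 304 of the 142206 peak intervals in the 4 lists, with 107 in limb EGFP+, 58 in limb EGFP−, 94 in trunk EGFP+ and 45 in trunk EGFP− cells. H3K27ac is a histone mark found at active promoters and enhancers.

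All 4 populations came from E14.5 fetuses that carried the homozygous Col2a1-EGFP sensor, an EGFP gene with a minimal β-globin promoter placed upstream of the Col2a1 start site. The fetuses were male and were made by tetraploid aggregation from 1 line of edited G4 embryonic stem cells, so no population lacked the sensor. Limbs and trunks were dissociated, pooled over fetuses and sorted by fluorescence into limb EGFP+, limb EGFP−, trunk EGFP+ and trunk EGFP− cells, and 1 library was made from each. EGFP reports the activity of the Col2a1 locus, so an EGFP+ cell is one that uses the regulatory sequences around Col2a1. The sort therefore acted on Col2a1 itself, and the values at this gene are a check of the sort and not a finding. The EGFP− cells were all remaining cells of the tissue and not a defined cell type.

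Collagen II is a triple helix of 3 identical Col2a1 chains and makes up most of the fibrils of cartilage. Collagen XI, built from the products of Col11a1, Col11a2 and Col2a1, is copolymerised in the same fibrils, and collagen IX, built from 1 chain each of Col9a1, Col9a2 and Col9a3, decorates their surface. Collagen X, encoded by Col10a1, is made by hypertrophic chondrocytes, the late stage before bone replaces cartilage. Col27a1 encodes a fibrillar collagen of cartilage and hosts the microRNA gene Mir455 in an intron.

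The limb libraries were run on another lane than the trunk libraries, and the effects of lane and tissue cannot be told apart. The peak names of the trunk EGFP− list carry another replicate number than its label. The lists held 40899, 34360, 36231 and 30716 intervals in the order limb EGFP+, limb EGFP−, trunk EGFP+ and trunk EGFP−. The median summit held between 26 and 29 reads. With 1 library per population no replicate error exists and no test between populations was possible. A peak that is absent from a list was not detectable at this depth over its surroundings, which is not a measurement of 0 reads. Over all gene symbols a promoter peak was found at 54.0% in limb EGFP+, 51.2% in limb EGFP−, 52.2% in trunk EGFP+ and 52.3% in trunk EGFP− cells. Of 8 chondrocyte markers, 8 had a promoter peak in each EGFP+ list and 2 in each EGFP− list. Of the 4 epithelial and 4 blood markers none had a promoter peak in any list. Among the 6 muscle markers, 1 had a promoter peak in limb EGFP+ cells and none in the other lists. Osteoblast markers (4) had 2, 1, 2 and 0 promoter peaks in the order limb EGFP+, limb EGFP−, trunk EGFP+ and trunk EGFP−, perichondrium and tendon markers (4) had 2, 2, 3 and 2, endothelial markers (4) had 0, 1, 0 and 1 and neural markers (4) had 1, 0, 0 and 1.

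Peaks outside all promoter windows were called distal, however close to a window they lay. A distal region was called EGFP+-only where the EGFP− list of the same tissue had no overlapping interval. For each gene the sequence at the EGFP+ summit of its first-ranked EGFP+-only distal region is shown, because the ranking puts it first. The limb EGFP− list had no interval at any of these regions, but at the Col9a2 region the trunk EGFP− list had an interval of the neighbouring Smap2 promoter that overlapped it. Each run has 200 bases of the plus strand of GRCm39, centred on the limb EGFP+ summit. Capitals mark matches, on either strand, to ACAAAG or ACAATG (bound by SOX proteins), TGTTTAC (FOX), TGTGGT (RUNX), TGAGTCA or its reverse complement TGACTCA (AP-1) and CTANNNNTAG (MEF2).
Col2a1 region, chr15:97946587-97946786: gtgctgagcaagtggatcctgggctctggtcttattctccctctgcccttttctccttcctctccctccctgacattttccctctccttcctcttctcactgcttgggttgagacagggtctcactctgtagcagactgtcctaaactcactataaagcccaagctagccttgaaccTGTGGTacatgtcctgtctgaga
Col9a1 region, chr1:24235566-24235765: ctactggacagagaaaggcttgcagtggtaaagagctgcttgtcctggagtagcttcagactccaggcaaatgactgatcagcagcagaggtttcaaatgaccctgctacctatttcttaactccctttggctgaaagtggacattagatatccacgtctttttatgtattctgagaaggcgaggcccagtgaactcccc
Col9a2 region, chr4:120873625-120873824: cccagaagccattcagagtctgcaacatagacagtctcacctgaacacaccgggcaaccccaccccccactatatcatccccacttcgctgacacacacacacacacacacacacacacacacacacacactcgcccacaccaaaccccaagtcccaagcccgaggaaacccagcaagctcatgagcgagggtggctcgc
Col9a3 region, chr2:180242449-180242648: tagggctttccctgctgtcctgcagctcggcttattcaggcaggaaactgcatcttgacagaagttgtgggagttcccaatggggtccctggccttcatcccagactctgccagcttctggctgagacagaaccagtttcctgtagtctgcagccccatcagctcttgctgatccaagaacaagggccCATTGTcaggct
Col10a1 region, chr10:34233147-34233346: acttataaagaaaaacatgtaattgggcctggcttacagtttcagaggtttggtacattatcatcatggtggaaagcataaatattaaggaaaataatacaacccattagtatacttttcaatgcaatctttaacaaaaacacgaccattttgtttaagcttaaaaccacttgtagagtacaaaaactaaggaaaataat
Col11a1 region, chr3:113893400-113893599: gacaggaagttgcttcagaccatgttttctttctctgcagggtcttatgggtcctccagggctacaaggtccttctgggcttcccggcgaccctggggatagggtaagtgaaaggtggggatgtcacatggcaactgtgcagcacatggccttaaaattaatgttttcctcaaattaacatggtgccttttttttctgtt
Col11a2 region, chr17:34260315-34260514: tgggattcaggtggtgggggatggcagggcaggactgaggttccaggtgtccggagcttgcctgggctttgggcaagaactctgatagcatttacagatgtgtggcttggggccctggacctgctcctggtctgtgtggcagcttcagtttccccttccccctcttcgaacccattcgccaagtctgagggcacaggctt
Col27a1 region, chr4:63104351-63104550: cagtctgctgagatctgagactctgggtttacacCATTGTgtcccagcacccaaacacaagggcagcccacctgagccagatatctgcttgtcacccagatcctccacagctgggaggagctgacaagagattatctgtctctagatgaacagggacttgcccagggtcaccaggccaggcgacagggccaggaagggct

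Of these 8 sequences, 3 held a match. The Col2a1 sequence held TGTGGT, which was present in 14.8% of the 15631 limb EGFP+-only distal summit windows of the whole series. The Col9a3 and Col27a1 sequences each held ACAATG, present in 8.74% of those windows. Over the 56 limb EGFP+-only distal intervals of the collagen genes, 6 held ACAAAG and 9 held ACAATG within 100 bp of the summit. These are 10.7% and 16.1%, beside 16.7% and 8.74% over all such limb intervals. In the 47 trunk EGFP+-only intervals the shares were 19.1% for ACAAAG and 6.38% for ACAATG, beside 17.1% and 8.11%. Neither SOX motif stood above the background of all EGFP+-only intervals in both tissues. Matches to TGTGGT were found in 8.93% of the limb and 14.9% of the trunk intervals of the collagen genes, beside 14.8% and 15.2% of all. TGTTTAC was found in 1.79% and 6.38%, beside 2.74% and 2.80%, and the AP-1 sequence in 1.79% and 0.0%, beside 3.42% and 3.02%. CTANNNNTAG was the only one of the 6 motifs with a higher share than the background in both tissues, at 7.14% beside 2.75% in limb and 6.38% beside 2.90% in trunk. These shares rest on 4 of 56 and 3 of 47 intervals. The tissues are not independent here, since 32 of the 56 limb intervals overlapped a trunk EGFP+ interval. A match is a description of the letters, and H3K27ac summits mark nucleosomes beside, rather than on, bound sequences.

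The Col11a1 sequence crosses an exon of that gene, and its summit lay in the exon. No other of the 8 summits lay in an exon of a member. The Col2a1 region lay in Senp1, the Col9a2 region in Smap2 and the Col10a1 region in Nt5dc1, the gene in which Col10a1 itself is nested.

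The number of peaks around the genes was counted first. Own-promoter windows ran from 2 kb upstream to 500 bp downstream of each annotated start site. Col2a1 and Col11a2 had the most intervals in EGFP+ cells. Around Col2a1 there were 21 in limb EGFP+, 10 in limb EGFP−, 21 in trunk EGFP+ and 6 in trunk EGFP− cells. At Col11a2, which lies among 13 other genes in its window, the counts were 19, 15, 18 and 12 in the same order, and most lay in promoters of neighbours such as Ring1, Rxrb, Brd2 and Vps52. The counts in that order were 12, 3, 9 and 3 at Col9a1. They were 9, 7, 8 and 7 at Col9a2 and 12, 5, 9 and 5 at Col9a3. Col11a1 had 13, 5, 9 and 3 and Col27a1 had 15, 5, 15 and 3. Col10a1 was the only member at which EGFP+ cells did not have more intervals than EGFP− cells in either tissue, with 6, 8, 5 and 6.

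**Figure D1:**
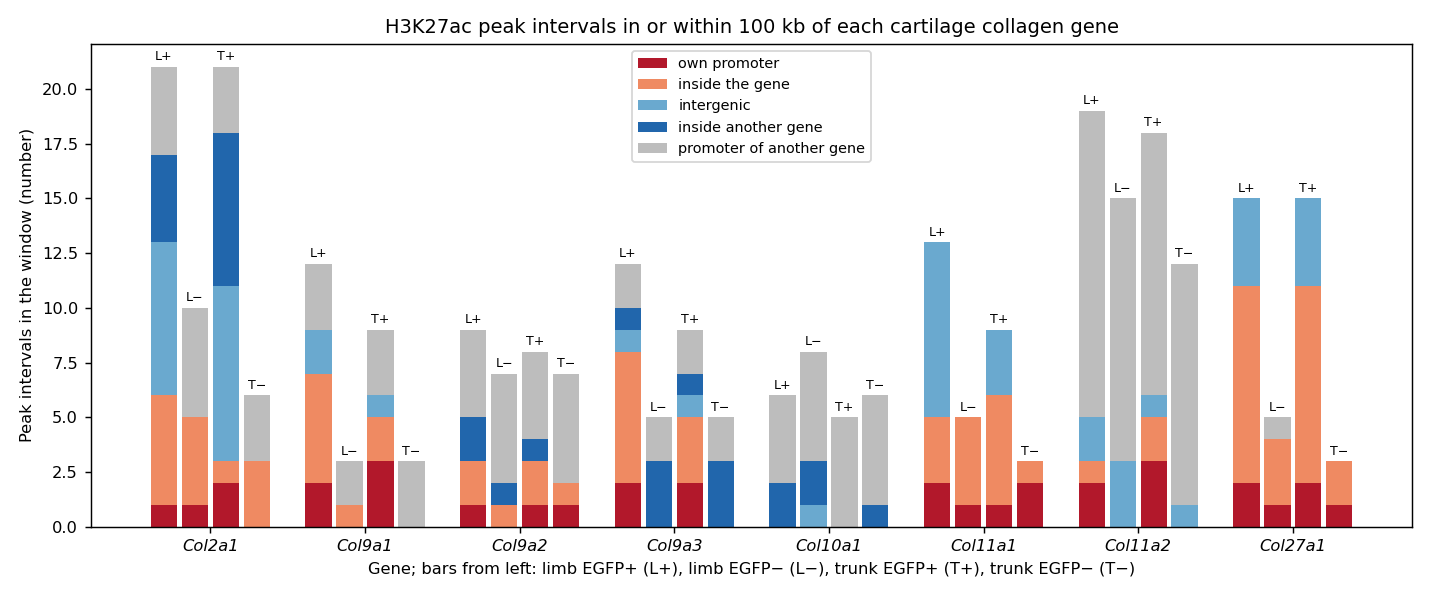
Number of H3K27ac peak intervals (y axis) in the window of each gene (x axis) in the 4 lists, split by colour into the place of the interval. Col2a1 has 21 intervals in each EGFP+ list, and the bars of Col10a1 hold no own-promoter interval.

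Counted over the 8 genes, distal intervals numbered 64 in limb EGFP+, 23 in limb EGFP−, 51 in trunk EGFP+ and 12 in trunk EGFP− cells. The median protein-coding gene had 1 distal interval in its window in every list. Col2a1 had 16 in each EGFP+ list, more than 99.2% of genes in limb and 99.5% in trunk. Col27a1 had 13 in each, more than 98.0% and 98.9% of genes, in a window of 221 kb. Col11a1 had 11 in limb and 8 in trunk EGFP+ cells, more than 96.6% and 94.1% of genes, in the longest window, 290.2 kb. Genes with long bodies have longer windows, and the windows of the remaining 6 members were 200 kb. Col10a1 had 2 distal intervals in limb EGFP+ cells and 0 in trunk EGFP+ cells.

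Distal intervals of the collagen genes were often absent from the EGFP− list. They include intervals inside the genes just past a promoter window. In limb EGFP+ cells such EGFP+-only intervals lay at 0.75 and 1.1 kb of Col2a1, 1.92 kb of Col9a1 and 2.96 kb of Col9a2. Others lay at 1.96 and 2.97 kb of Col9a3, 2.31 kb of Col11a2 and 3.07 kb of Col27a1. Shares without these intervals were not computed, so the shares below are not separate from the promoter counts. In limb, 56 of 64 distal EGFP+ intervals, or 87.5% (95% exact binomial interval 76.8 to 94.4%), had no EGFP− interval, beside 68.5% of all 22833 distal limb EGFP+ intervals. In trunk the share was 47 of 51, or 92.2% (81.1 to 97.8%), beside 69.1% of all 19295. Both background shares lay below the intervals, which cover counting error only and treat neighbouring peaks as independent. Without Col2a1, the gene used for the sort, the shares were 42 of 48 and 32 of 35. The opposite share was near the background. Of the distal EGFP− intervals, 13 of 23 (56.5%, 34.5 to 76.8%) in limb had no EGFP+ interval, beside 56.6% of all, and 7 of 12 (58.3%, 27.7 to 84.8%) in trunk, beside 57.3%. The direction was shared by most members. In limb the EGFP+-only share ran from 2 of 3 at Col11a2 to 7 of 7 at Col9a1 and 2 of 2 at Col10a1, and in trunk from 2 of 3 at Col9a2 and Col11a2 to 8 of 8 at Col11a1. With these counts the genes cannot be put in order, since their intervals overlap.

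**Figure D2:**
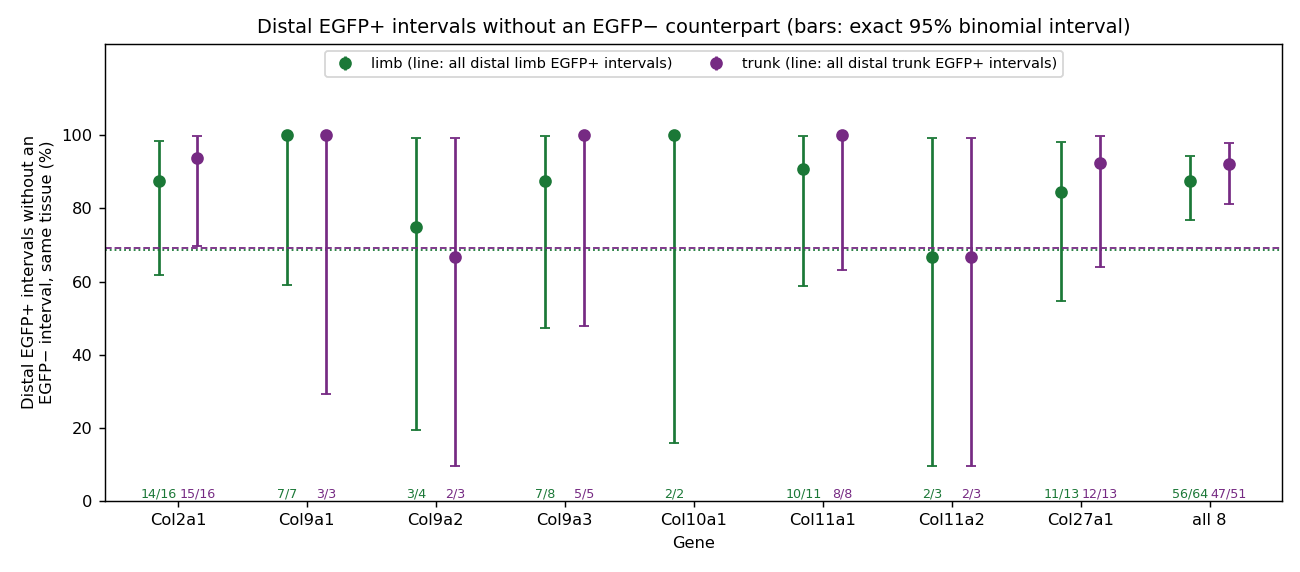
Share (%) of distal EGFP+ intervals that no EGFP− interval of the same tissue overlaps, for each gene and for all 8 genes, with exact 95% binomial intervals and the counts below. Dotted and dashed lines are the shares over all distal limb (68.5%) and trunk (69.1%) EGFP+ intervals, and the pooled shares of 87.5% and 92.2% lie above them.

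Limb and trunk EGFP+ cells were compared next. Of the 64 distal limb EGFP+ intervals, 37 (57.8%, 44.8 to 70.1%) overlapped a trunk EGFP+ interval, beside 49.4% of all distal limb EGFP+ intervals. Of the 51 trunk intervals, 36 (70.6%, 56.2 to 82.5%) overlapped a limb interval, beside 59.4%. Both backgrounds lay within the intervals. Among the EGFP+-only intervals, 32 of 56 in limb (57.1%, 43.2 to 70.3%) overlapped a trunk EGFP+ interval, beside 37.7% of all, and 32 of 47 in trunk (68.1%, 52.9 to 80.9%) overlapped a limb interval, beside 49.4%. Here both backgrounds lay below the intervals. Without Col2a1 the shares were 20 of 42 (47.6%, 32.0 to 63.6%) and 20 of 32 (62.5%, 43.7 to 78.9%), and both backgrounds lay within these intervals. The genes differed in the counts. At Col2a1, 13 of 16 limb and 13 of 16 trunk intervals were shared, and at Col27a1 9 of 13 and 10 of 13. At Col9a1 only 1 of 7 limb and 1 of 3 trunk intervals were shared, and at Col11a1 3 of 11 and 4 of 8. For a count of regions, neighbours from the same tissue were joined where at most 500 bp lay between them. Limb and trunk stretches were then combined only where they overlapped. Stretches that lay close without overlap were counted apart, as at -70.0 kb (limb) and -70.4 kb (trunk) of Col11a1. The EGFP+-only intervals formed 55 regions. Of these, 26 (47.3%, 33.7 to 61.2%) had an EGFP+ interval in both tissues, 17 in limb only and 12 in trunk only. Over the whole genome 30.8% of 20118 such regions had one in both. Col2a1, the gene used for the sort, held 12 of the 55 regions and 9 of the 26. Regions in both tissues were 1 of 8 at Col9a1, 3 of 3 at Col9a2, 3 of 8 at Col9a3 and 0 of 2 at Col10a1. They were 3 of 11 at Col11a1, 1 of 3 at Col11a2 and 6 of 8 at Col27a1. The share without Col2a1 was not computed, so a gap to the whole genome was not shown for the other members. The 55 regions lay inside the collagen gene in 27 cases, between genes in 19 and inside another gene in 9. Regions with an EGFP−-only interval numbered 13, and 3 of them (23.1%, 5.04 to 53.8%) had an EGFP− interval in both tissues. Over the whole genome there were 14880 EGFP−-only regions beside the 20118 EGFP+-only ones. Of these EGFP−-only regions, 22% had an interval in both tissues.

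**Figure D3:**
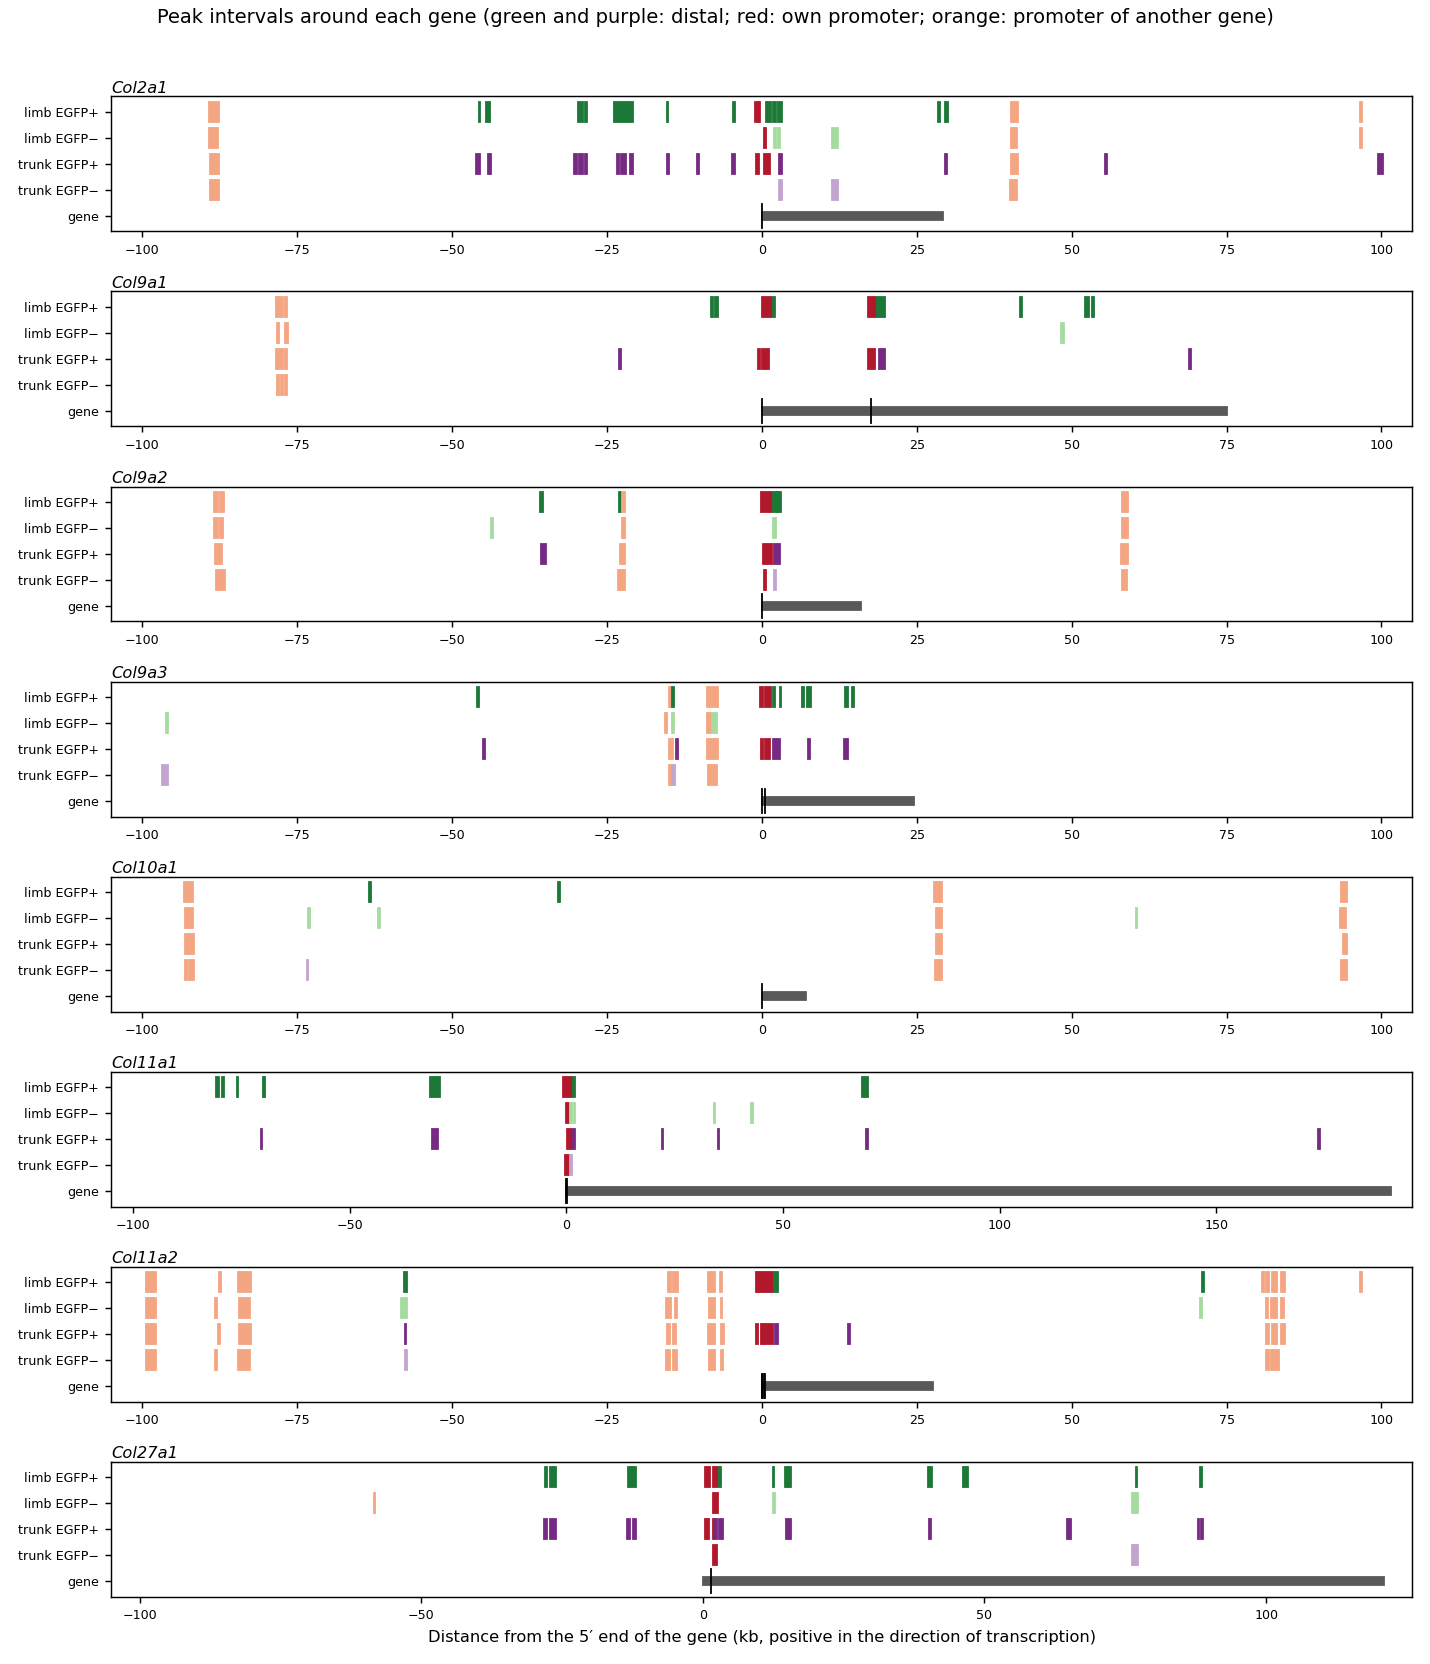
Peak intervals of the 4 lists around each gene, drawn by distance from its 5′ end in kb (x axis), with the gene as a grey bar and its annotated start sites as vertical lines. Green and purple boxes are distal, red boxes lie in the gene's own promoter and orange boxes in the promoter of another gene, and the upstream blocks of Col2a1 appear in both EGFP+ rows and in neither EGFP− row.

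Promoters of the members were then described. Of the 8 genes, 7 had an own-promoter peak in limb EGFP+ and 7 in trunk EGFP+ cells, beside 54.0% and 52.2% of 21738 gene symbols. In each EGFP− list 3 of 8 had one, beside 51.2% in limb and 52.3% in trunk. In limb, 4 members (Col9a1, Col9a2, Col9a3 and Col11a2) had an EGFP+ but no EGFP− promoter peak, beside 4.78% of all symbols. In trunk there were also 4 (Col2a1, Col9a1, Col9a3 and Col11a2), beside 3.19%. Col9a1, Col9a3 and Col11a2 had EGFP+ peaks in both tissues and no EGFP− peak, a pattern of 1.44% of all symbols. Col10a1 had no promoter peak in any list, as did 41.7% of symbols. The opposite pattern, an EGFP− peak without an EGFP+ peak, was found at 0 of 8 members in each tissue, beside 2.0% of symbols in limb and 3.29% in trunk.

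The number of reads at a summit was recovered from the listed fold and −log10 p for 100% of summits. It counts reads extended to 200 bp over 1 position, so it has the same length at every gene. Promoter reads are those of the highest summit of any interval that overlapped a promoter window, and this summit could lie outside the window. Reads given for a region are those of a single interval per list, and its summit could differ in place between limb and trunk. A similar number of raw reads had been drawn from each library before mapping, but the filtered libraries were not equally deep. Their means were 1.49 reads per 200 bp in limb EGFP+, 1.63 in limb EGFP−, 1.604 in trunk EGFP+ and 1.83 in trunk EGFP− cells. Reads compared between lists are not scaled for this, and in each tissue the EGFP− library had the higher mean. Intervals in brackets are exact 95% Poisson intervals, which cover counting error only. The second measure is the read density around a summit, counted in 10 kb of the same library, and the scaled density is this count over the mean of the library. Because the lists use no separate control, fold and −log10 p are set against that density, and a gene with acetylation over many kb has a lower fold and a lower rank for the same number of reads.

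Col2a1 encodes the chain of collagen II. Its own promoter held 110 reads (90.4 to 133) in limb EGFP+, 14 (7.65 to 23.5) in limb EGFP− and 84 (67.0 to 104) in trunk EGFP+ cells, and no listed peak in trunk EGFP− cells. The Poisson intervals of limb EGFP+ and limb EGFP− cells did not overlap. The limb EGFP− interval lay at 0.48 kb inside the gene, apart from the limb EGFP+ promoter interval, which lay at -0.59 kb. The sensor, with its own promoter, was inserted inside the Col2a1 promoter window, and the genome used for mapping lacks it. The promoter values are thus those of the edited locus. The density in 10 kb was 2172 reads at a limb EGFP+ summit in the first part of the gene, 29.1 times the mean of the library, and 1939 reads in trunk EGFP+ cells, 24.2 times. These densities stood above 99.9% of intervals in limb and 99.95% in trunk. In EGFP− cells the highest densities in the gene were 298 and 313 reads, 3.66 and 3.41 times the mean. At the overlapping intervals near 2.9 kb, the scaled density in EGFP+ cells was 13.6 times that in EGFP− cells in limb and 14.49 times in trunk. By −log10 p the same promoter peaks stood only at percentile 69.4 in limb EGFP+ and 59.0 in trunk EGFP+ cells, whereas by summit reads they stood at percentile 98.5 and 97.5. The place of Col2a1 within its list thus depended on which of the measures was ranked.

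The 12 EGFP+-only regions around Col2a1 lay mostly upstream, and 9 of them had intervals in both tissues. The first-ranked region, chr15:97946447-97947219 in Senp1, lay at -44.0 kb and held 32 reads (21.9 to 45.2) in limb and 48 (35.4 to 63.6) in trunk EGFP+ cells. The second, chr15:97923428-97926504, is intergenic at -22.5 kb and held 98 (79.6 to 119) and 60 (45.8 to 77.2). The third, chr15:97930987-97933031, lay in Senp1 at -29.2 kb and held 80 (63.4 to 99.6) and 51 (38.0 to 67.1). None of the 3 had an interval in either EGFP− list. A region of the opposite kind lay in the body of Col2a1, at 11.9 kb, chr15:97890460-97891411. It held 38 reads (26.9 to 52.2) in limb EGFP− and 45 (32.8 to 60.2) in trunk EGFP− cells, at percentile 72.4 and 80.5 of their lists by −log10 p. Neither EGFP+ list had an interval there, and the reads of EGFP+ cells at this place are not given by the lists. The region spans the annotated start of Gm46536, a long noncoding RNA gene on the strand opposite to Col2a1. Its sequence was added after its values were seen, because it was the strongest EGFP−-only element inside a member. It held matches to both SOX sequences. The share of EGFP−-only windows with such matches was not counted, so these matches have no background. Of all limb EGFP+-only windows, 16.7% held ACAAAG and 8.74% held ACAATG.
Col2a1 intronic EGFP− region, chr15:97890643-97890842: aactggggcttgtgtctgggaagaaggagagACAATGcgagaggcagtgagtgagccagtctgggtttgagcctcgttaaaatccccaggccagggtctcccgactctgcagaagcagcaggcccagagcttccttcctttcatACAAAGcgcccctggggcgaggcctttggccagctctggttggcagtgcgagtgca

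Col9a1, Col9a2 and Col9a3 encode the 3 chains of collagen IX. Col9a1 has start sites 17.6 kb apart, of which the downstream one gives a shorter chain. Both had EGFP+ peaks in both tissues and no EGFP− peak. At the upstream start the summit held 64 reads in limb and 60 in trunk EGFP+ cells, and at the downstream start 90 (72.4 to 111) and 63 (48.4 to 80.6). The −log10 p of the limb peaks was 22.3 upstream and 28.3 downstream, and that of the trunk peaks 23.5 and 14.46. The stronger start by −log10 p thus differed between limb and trunk, whereas by reads the downstream start was the higher in both, with overlapping Poisson intervals in both. Promoter sequences of these genes were taken from the RefSeq table (GRCm38.p6), which held an entry for 6 of the 8 members but not for Col2a1 and Col9a3. They are shown for members with EGFP+ promoter peaks in both tissues and none in EGFP− cells, from 250 bases before to 50 after the start, with motif matches in capitals. Each matched GRCm39 exactly at the place given.
Col9a1 promoter 1, chr1:24216441-24216740: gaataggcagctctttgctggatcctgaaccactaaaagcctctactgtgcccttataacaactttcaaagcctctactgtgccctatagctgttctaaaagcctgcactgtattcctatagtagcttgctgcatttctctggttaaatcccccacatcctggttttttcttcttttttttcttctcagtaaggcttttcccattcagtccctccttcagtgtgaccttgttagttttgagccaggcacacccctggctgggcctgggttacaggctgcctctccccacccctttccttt
Col9a1 promoter 2, chr1:24234034-24234333: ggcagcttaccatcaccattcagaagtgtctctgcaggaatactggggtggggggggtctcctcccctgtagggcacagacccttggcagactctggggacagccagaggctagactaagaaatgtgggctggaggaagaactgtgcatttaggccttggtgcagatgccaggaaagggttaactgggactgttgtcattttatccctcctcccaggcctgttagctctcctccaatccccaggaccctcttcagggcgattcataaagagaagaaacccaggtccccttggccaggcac
Col11a2 promoter, chr17:34257862-34258161: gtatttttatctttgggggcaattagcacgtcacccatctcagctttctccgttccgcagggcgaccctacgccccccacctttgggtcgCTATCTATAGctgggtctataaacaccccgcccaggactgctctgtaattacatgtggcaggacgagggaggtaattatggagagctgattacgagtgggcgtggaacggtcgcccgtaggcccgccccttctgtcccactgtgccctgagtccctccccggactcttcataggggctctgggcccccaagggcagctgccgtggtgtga

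The Col9a1 promoters held 0 and 1 CpG in 300 bases, and the Col11a2 promoter held 16. The remaining matched members held 18 (Col27a1), 10 (Col9a2), 9 (Col11a1) and 6 (Col10a1), and the median over 32851 RefSeq promoters was 7.0. So the promoters with EGFP+ peaks and no EGFP− peak included CpG-poor and CpG-rich ones. CTANNNNTAG, found in the Col11a2 promoter, was present in 3.69% of RefSeq promoters.

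The highest density at Col9a1 was 1068 reads in 10 kb in limb and 996 in trunk EGFP+ cells. Its distal peaks differed between the tissues. Of 8 EGFP+-only regions only chr1:24235316-24236601, at 19.0 kb beside the downstream start, was found in both, with 66 reads (51.0 to 84.0) in limb and 48 (35.4 to 63.6) in trunk. The second, chr1:24269962-24270224 at 53.4 kb, held 39 reads (27.7 to 53.3) in limb EGFP+ cells and was not listed in trunk. The third, chr1:24193585-24193887 at -23.0 kb, held 15 (8.40 to 24.7) in trunk EGFP+ cells and was not listed in limb. An EGFP−-only region, chr1:24265002-24265374 at 48.5 kb inside the gene, held 23 reads (14.6 to 34.5) in limb EGFP− cells.

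Col9a2 had the highest-ranked own-promoter peak of the 8 genes by −log10 p, at percentile 87.6 in limb EGFP+ and 88.9 in trunk EGFP+ cells. The highest summits of these promoter intervals held 110 reads (90.4 to 133) and 90 (72.4 to 111). These summits lay at 0.95 kb in limb and 0.93 kb in trunk, inside the gene and beyond the promoter window. The limb EGFP− list had no promoter peak, and the trunk EGFP− list had a weak one of 12 reads (6.20 to 21.0), at percentile 0.329. At 2.0 kb inside the gene all 4 lists had an interval, with 67, 17, 47 and 16 reads in the order limb EGFP+, limb EGFP−, trunk EGFP+ and trunk EGFP−. The scaled density there was 7.28 times higher in EGFP+ cells in limb and 5.48 times in trunk. The first-ranked region, chr4:120873569-120873832 at -22.9 kb, lay beside the promoter of Smap2. It held 22 reads (13.8 to 33.3) in limb EGFP+ cells. In trunk it had no distal interval of its own, and the Smap2 promoter intervals of both trunk fractions reached into it, with summits outside it. It was thus EGFP+-only in limb and not in trunk. The second, chr4:120860818-120861783 at -35.6 kb, held 30 (20.2 to 42.8) and 18 (10.7 to 28.4) in limb and trunk EGFP+ cells. The third, chr4:120899055-120899670 at 2.96 kb in the gene, held 50 (37.1 to 65.9) and 42 (30.3 to 56.8).

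At Col9a3 the promoter held 110 reads (90.4 to 133) in limb EGFP+ and 77 (60.8 to 96.2) in trunk EGFP+ cells and no listed peak in EGFP− cells. Its density was the second highest of the members, with 1872 reads in 10 kb in limb and 1697 in trunk EGFP+ cells. Its EGFP+-only regions lay mainly inside the gene. The first, chr2:180241338-180242652 at 2.97 kb, held 73 reads (57.2 to 91.8) and 71 (55.5 to 89.6). The next, chr2:180252904-180253522 at 13.6 kb, held 40 (28.6 to 54.5) and 32 (21.9 to 45.2), and chr2:180246929-180247526 at 7.77 kb held 58 (44.0 to 75.0) and 45 (32.8 to 60.2). By −log10 p the third stood at percentile 41.1 in limb and 2.38 in trunk, although its trunk summit held more reads than 74.0% of trunk EGFP+ intervals. No EGFP− interval lay inside Col9a3 in either tissue.

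**Figure D4:**
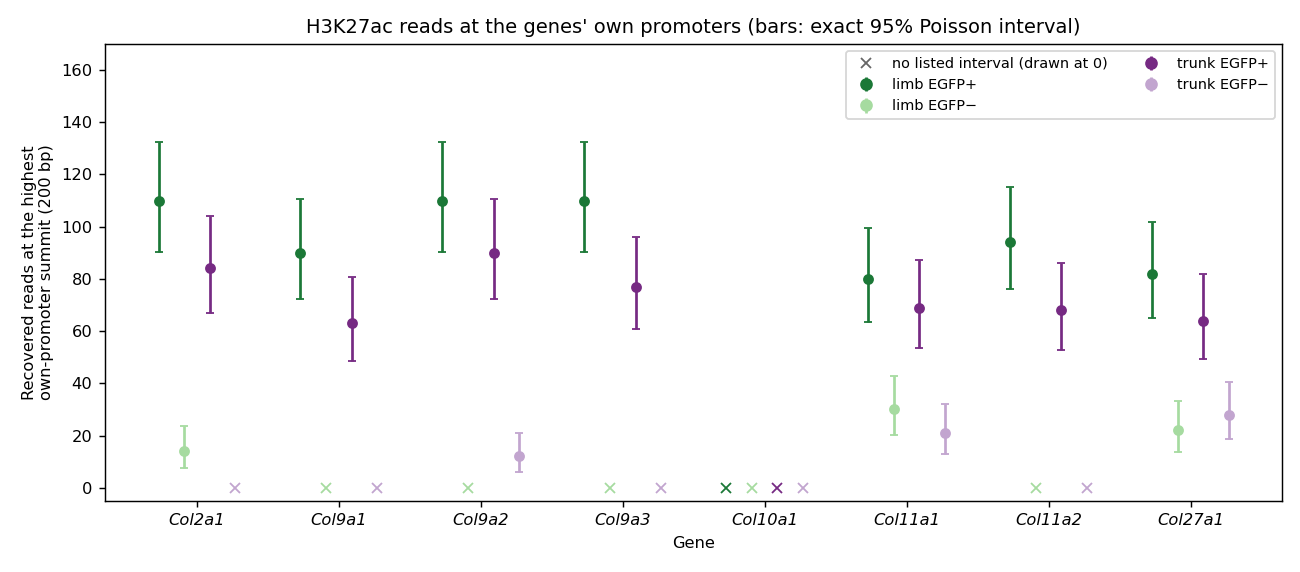
Recovered reads (y axis) at the highest summit of the intervals that overlapped the gene's own promoter windows, for each gene (x axis) in the 4 lists. Bars are exact 95% Poisson intervals, and some of the summits lay outside the windows. Crosses at 0 mark lists without a peak in the promoter, and the EGFP+ values of 7 genes run from 63 to 110 reads while the EGFP− values run from 12 to 30.

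Col11a1 and Col11a2 encode chains of collagen XI. Col11a1 had own-promoter peaks in all 4 lists, with 80 reads (63.4 to 99.6) in limb EGFP+, 30 (20.2 to 42.8) in limb EGFP−, 69 (53.7 to 87.3) in trunk EGFP+ and 21 (13.0 to 32.1) in trunk EGFP− cells. The EGFP+ values were higher in both tissues, and the Poisson intervals did not overlap. The EGFP+ summits lay at 0.76 kb in limb and 0.90 kb in trunk, beyond the promoter windows, and the EGFP− summits at 0.14 and 0.38 kb. The scaled density at the overlapping promoter peaks was 5.14 times higher in EGFP+ cells in limb and 5.21 times in trunk. A promoter peak in the EGFP− list was thus found beside a lower read count, which presence alone does not show. The first-ranked region, chr3:113892375-113893802 at 69.4 kb in the gene, held 48 reads (35.4 to 63.6) in limb and 28 (18.6 to 40.5) in trunk EGFP+ cells. The second, chr3:113792577-113795021, is intergenic at -30.3 kb and held 52 (38.8 to 68.2) and 32 (21.9 to 45.2). The third, chr3:113825709-113826014 at 1.71 kb, held 62 (47.5 to 79.5) and 66 (51.0 to 84.0), and limb EGFP− cells also had 22 reads (13.8 to 33.3) there. Inside the gene, limb EGFP− cells alone had chr3:113866810-113867009 with 9 reads (4.12 to 17.1) and chr3:113858112-113858421 with 12 (6.20 to 21.0). Both stood at percentiles of 11.8 and 8.56, near the lower end of that list. Limb EGFP+ intervals between -80.8 and -69.7 kb, 5 in number, had no trunk EGFP+ overlap. The trunk EGFP+ list had an interval of its own in this stretch, chr3:113753623-113753822 at -70.4 kb, with 13 reads (6.92 to 22.2).

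Col11a2 had no own-promoter peak in EGFP− cells and 94 reads (76.0 to 115) in limb EGFP+ and 68 (52.8 to 86.2) in trunk EGFP+ cells. Its limb promoter interval was 2177 bp wide and was the widest of all 304 intervals, beside a median of 416 bp in that list. The highest density was 1488 reads in 10 kb in limb and 1293 in trunk. The first-ranked region, chr17:34260122-34260737 at 2.31 kb in the gene, held 68 (52.8 to 86.2) and 72 (56.3 to 90.7) reads in limb and trunk EGFP+ cells. The second, chr17:34272053-34272380 at 14.1 kb in the gene, held 27 (17.8 to 39.3) in trunk EGFP+ cells. The third, chr17:34329215-34329429 at 71.3 kb, held 15 (8.40 to 24.7) in limb EGFP+ cells. Promoters of neighbouring genes held 14 of its limb EGFP+, 12 of its limb EGFP−, 12 of its trunk EGFP+ and 11 of its trunk EGFP− intervals.

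Col27a1 encodes collagen XXVII. Its promoter held 82 reads (65.2 to 102) in limb EGFP+, 22 (13.8 to 33.3) in limb EGFP−, 64 (49.3 to 81.7) in trunk EGFP+ and 28 (18.6 to 40.5) in trunk EGFP− cells. As at Col11a1, peaks were found in all 4 lists and the Poisson intervals of EGFP+ and EGFP− cells did not overlap. In limb the EGFP+ and EGFP− values came from different intervals, with summits at 0.47 and 2.03 kb. The limb EGFP+ interval that overlapped the EGFP− one held 78 reads (61.7 to 97.3). Both EGFP− summits and the trunk EGFP+ summit lay beyond the promoter window of the annotated start at 1.43 kb. The scaled density at the overlapping promoter peaks was 5.24 times higher in EGFP+ cells in limb and 4.51 times in trunk. The first-ranked region, chr4:63104101-63106099 at -27.8 kb, held the highest-ranked distal EGFP+ interval of all 8 genes in limb, at percentile 86.8. The region held 96 reads (77.8 to 117) in limb and 55 (41.4 to 71.6) in trunk, where the summit lay at -27.0 kb. The trunk interval that overlapped the limb one held 51 (38.0 to 67.1). The second, chr4:63146844-63147982 at 14.9 kb in the gene, held 56 (42.3 to 72.7) and 40 (28.6 to 54.5). The third, chr4:63172302-63172924 at 40.4 kb, held 23 (14.6 to 34.5) and 36 (25.2 to 49.8), and its summits lay -2.48 kb (limb) and -2.52 kb (trunk) from the start of Mir455. The nearest EGFP− intervals to Mir455 lay -30.1 kb from it in limb and 33.4 kb in trunk. An EGFP−-only region lay in the gene at 76.4 kb, chr4:63208364-63209420, with 20 reads (12.2 to 30.9) in limb EGFP− and 15 (8.40 to 24.7) in trunk EGFP− cells. Limb EGFP+ cells had an interval of 14 reads (7.65 to 23.5) wholly inside it, chr4:63209061-63209260, so only a part of the region was EGFP−-only in limb, and the Poisson intervals overlapped.

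Col10a1 encodes collagen X of hypertrophic chondrocytes. No list had an interval in its promoter or its body of 7.11 kb. All intervals in its window lay in promoters of Nt5dc1, Frk and Tspyl4 or were distal. The EGFP+-only regions were chr10:34233127-34233356 at -32.7 kb with 10 reads (4.80 to 18.4) and chr10:34202495-34202791 at -63.4 kb with 9 (4.12 to 17.1), both in limb only and both inside Nt5dc1. Their percentiles of 23.6 and 2.90 by −log10 p were low. The 4 EGFP−-only regions held between 9 and 13 reads. At these read counts neither fraction stood above the other.

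**Figure D5:**
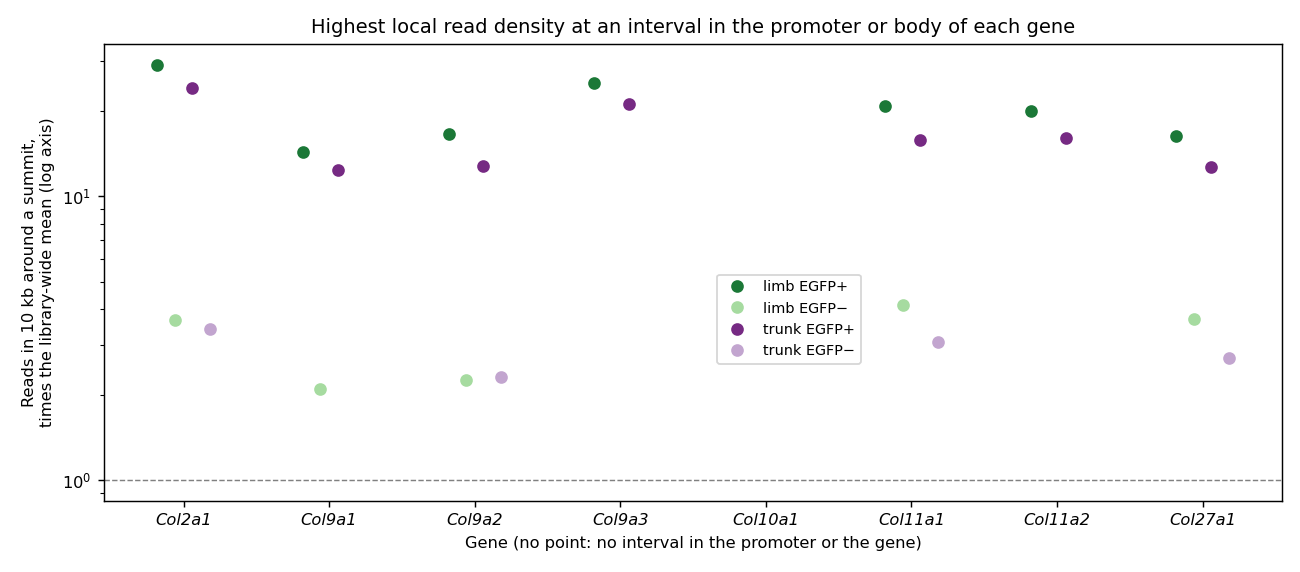
Highest read density in 10 kb around an interval in the promoter or body of each gene, as a multiple of the mean of the library on a log axis, in the 4 lists. EGFP+ points run from 12.4 to 29.1 and EGFP− points from 2.10 to 4.15 times the mean (dashed line at 1), with no point at Col10a1.

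The distal EGFP+ peaks of the collagen genes held more summit reads than the median distal peak, but did not stand apart by −log10 p. The median distal interval was 411 bp wide in limb EGFP+ and 344 bp in trunk EGFP+ cells, beside 331 and 324 bp over all distal intervals of these lists. By summit reads the median distal interval stood at percentile 61.5 in limb and 58.8 in trunk EGFP+ cells, beside 32.4 and 31.2 for all distal intervals. Without Col2a1, the gene used for the sort, the medians by reads were 52.9 and 52.6. By −log10 p the medians over the 8 genes were 34.2 and 29.2, beside 32.7 and 31.7, so in trunk the collagen genes lay lower. Without Col2a1 the median width was 399 bp in limb and 306 bp in trunk, the latter under that of all distal intervals. In EGFP− cells the median percentile by reads was 31.9 in limb and 22.7 in trunk, beside 28.4 and 26.1.

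Other genes of cartilage and of connective tissue were set beside the collagens by their promoters. Of 12 non-collagen cartilage matrix genes, 10 had a limb EGFP+ and 11 a trunk EGFP+ promoter peak, 2 a limb EGFP− and 1 a trunk EGFP− peak, and 8 had EGFP+ but no EGFP− peaks in limb and 10 in trunk. Among them Acan, the large proteoglycan of cartilage, Comp, Matn1, Matn3, Chad, Cnmd, Mia and Snorc had EGFP+ peaks in both tissues and no EGFP− peak. The SOX genes that drive the chondrocyte programme, Sox5, Sox6 and Sox9, had EGFP+ peaks in both tissues, and 2 of the 3 also had EGFP− peaks. Of 10 collagen genes of general connective tissue, such as Col1a1, Col3a1 and Col6a1, 9 had limb EGFP+, 9 limb EGFP−, 10 trunk EGFP+ and 10 trunk EGFP− promoter peaks. None of these 10 had an EGFP+ peak without an EGFP− peak. That pattern was found at 4.78% of all symbols in limb and 3.19% in trunk, so its absence here is near the background. The cartilage collagens had it at 4 of 8 in each tissue, and in trunk Col2a1, the gene used for the sort, was among them. Over all symbols, promoter peaks were found at 54.0% in limb EGFP+, 51.2% in limb EGFP−, 52.2% in trunk EGFP+ and 52.3% in trunk EGFP−. No test was made between these gene lists.

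The genes most like each member in coverage were found by the Euclidean distance of 4 values, log2 of 1 plus the kb covered by each list in the window, among genes over 200 kb away. For Col2a1 these were Ctdspl at 0.15, Mdfi at 0.22 and Zfpm1 at 0.30. Col2a1 had 11.3, 4.25, 10.7 and 3.44 kb covered in the order limb EGFP+, limb EGFP−, trunk EGFP+ and trunk EGFP−, and Ctdspl had 11.4, 3.90, 11.5 and 3.54. The nearest genes were Supt3 for Col9a1 (0.12), Crip1 and Tedc1 with equal windows for Col9a2 (0.14), Ldlrad2 for Col9a3 (0.23) and Zbtb43 for Col10a1 (0.08). They were Setbp1 for Col11a1 (0.21), Myoz1 for Col11a2 (0.08) and Epb41l1 for Col27a1 (0.24). No cartilage collagen was the nearest gene of another.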

How the data were processed

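H3K27ac ChIP-seq of 4 sorted populations of E14.5 fetuses, 1 library each, was analysed from the deposited peak lists. Per the methods, the authors drew a similar number of raw reads from every library, removed adapters with cutadapt 1.18, mapped with Bowtie2 2.3.5.1 to GRCm39, which lacks the sensor cassette, filtered by mapping quality with SAMtools, and ran MACS2 2.2.7.1 on each library with reads extended to 200 bp. No control library or q threshold is given in the sources used here. The labels name 2 sonicators and either of a pair of read lengths without assigning them. In the deposited lists the score is 10 times the −log10 q without decimals. The fold deposited by the authors is a ratio, the pileup at the summit over the local background of the same library. The −log10 p and −log10 q deposited by the authors come from MACS2, the latter corrected within each library, and the smallest −log10 q was 1.30.

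Entries that shared start and end were merged as 1 interval on chromosomes 1 to 19, X and Y, valued by the summit of highest −log10 p. A percentile is the share of intervals of the same list with a lower value. Promoter windows (2 kb upstream to 500 bp downstream) used every start site of protein-coding transcripts in GENCODE vM39, the annotation of GRCm39. Intervals overlapped where they shared at least 1 bp. Reads k and local background b at a summit were recovered from fold = (k + 1)/(b + 1) and the Poisson −log10 p, within 0.001 for 100% of summits, and b was a whole number of reads in 10 kb, or the library mean, for 100%, within a tolerance of 0.05 reads. The recovery and the overlaps were tested on simulated data. Exact binomial and Poisson intervals are at the 95% level and cover counting error only. Python 3.11.15 with numpy 2.4.6, pandas 2.3.3, scipy 1.17.1 and matplotlib 3.10.9 was used.

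The 8 genes, the gene lists and the motifs were chosen with earlier results of these data known. Named for each gene were its strongest own-promoter interval per list, up to 3 EGFP+-only distal regions ranked by the lower of the limb and trunk EGFP+ percentiles (regions in both tissues first), EGFP−-only regions inside the gene, and the genes nearest in coverage, 3 for Col2a1 and 1 for each other member, with ties. Sequences follow the same ranking. The other lists were cartilage matrix genes without collagens, SOX regulators, connective tissue collagens and markers of chondrocytes, osteoblasts, perichondrium and tendon, muscle, epithelium, endothelium, blood and nerve. Alternatives were stricter thresholds on q, fold and rank, other overlap rules, windows of 50 and 200 kb, and promoters of the gene 5′ end only.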

Additional observations from a re-analysis of the deposited data

Results flagged for a closer look

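At 2 genes the difference in interval count between EGFP+ and EGFP− cells had opposite signs in limb and trunk. Inside Col2a1, EGFP+ minus EGFP− was 1 in limb and -2 in trunk. In trunk EGFP+ cells 1 interval of the gene's first part fell in the promoter window instead, while the EGFP− region at 11.9 kb counted as 2 intervals in each tissue. At the Col11a1 promoter the difference was 1 in limb and -1 in trunk, although EGFP+ cells had the higher summit reads in both tissues. Inside Col11a1 it was -1 in limb and 4 in trunk. These differences between the tissues were not tested, and with 1 library per population tissue and lane cannot be told apart.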

How the results depend on the processing

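Of 63 recomputed values, 49 stayed within 1.5 times the count or within the binomial interval of the share, and 14 moved. With −log10 q of at least 5, EGFP+-only distal intervals fell to 33 in limb (97.1% of distal EGFP+ intervals) and 18 in trunk, and 44.1% of limb intervals were shared with trunk. With fold of at least 4 they were 10 and 4 (80.0% in trunk), 36.4% were shared, and 2 promoters in limb and 2 in trunk had an EGFP+ but no EGFP− peak. In the 20000 intervals of highest −log10 p of each list they were 17 and 15. With an opposite or other-tissue interval allowed within 1 kb, 76.6% were shared. In the 20000 intervals with the most summit reads, chosen after seeing the data, the limb share was 95.0%. The stricter lists hold fewer intervals by construction. The EGFP+-only share of distal intervals stayed between 78.1 and 97.1% in limb and between 80.0 and 97.0% in trunk over the 9 alternatives. Shares over all distal intervals were not recomputed under these settings, so whether the gap to the background held was not tested. No paired analysis was possible because the populations shared only replicate number 1, with 1 library each, and EGFP+ and EGFP− cells were set side by side within each tissue. For the same reason no replicate could be left out. Absence from a list depends on depth and on the reads around the site, and reads at unlisted places were not analysed here.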
